A study of Mus musculus with 10 samples.

Results

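Oct4 depletion was followed within the ZHBTc4 line of mouse ES cells by setting 1 library of cells treated with tetracycline for 2 days (Tc 2D) against 2 libraries of the same line taken 4 days after infection with a pLKO control lentivirus. These 3 libraries were taken from a series of 10, of which 8 are mRNA libraries. Both endogenous copies of Pou5f1, the gene of Oct4, are disrupted in ZHBTc4 cells, and a tetracycline-repressible transgene supplies the protein. The controls therefore carry the same alleles. They did not receive tetracycline, and they differ from Tc 2D in further ways given below. The study's methods describe the lentivirus as carrying an shRNA against luciferase. WT, a library from untreated Pontinf/f; CreER ES cells, was used as a second reference because it shares a deposited table with Tc 2D. Pontin and GFP ChIP libraries of ZHBTc4 cells were read at promoters. The 2 libraries of ZHBTc4 cells with an shRNA against the noncoding RNA linc1253 entered only alternative settings. Of 22713 gene IDs, 13131 autosomal genes above 1 CPM, the normalised read count scaled to library size, in any of the 3 ZHBTc4 libraries were compared, and differences are those of log2(CPM + 1).

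Oct4 is a POU-domain transcription factor that, together with Sox2 and Nanog, holds ES cells in the pluripotent state. In the blastocyst it is kept in the inner cell mass, and the outer trophectoderm, which forms the placenta, switches it off and uses Cdx2, Gata3, Eomes and Hand1 instead. ES cells that lose Oct4 are known to leave pluripotency and to take on trophectoderm features. The question here is which pathways and lineages were higher or lower in the depleted cells, gene by gene.

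With 1 depleted library there is no replicate of Tc 2D, no call rests on a p across genes, and a gene was called upregulated or downregulated when its difference passed 0.58, the study's threshold. The spread is given by the 2 controls. Tetracycline, time in culture, infection, puromycin selection, sequencer model and deposited table all change together between Tc 2D and the controls. Their parts cannot be told apart. The selection of transduced cells and the sequencer models are those given by the study. Tc 2D and WT were normalised in the first table and the controls in the second. Tc 2D was therefore multiplied by 1.137, the factor that brings its median ratio to the controls to 1 over 15985 genes above 0 in all 3 libraries, and the levels of WT given below were multiplied by 1.139 in the same way. Recovered reads on genes came to 18120429 at Tc 2D and to 21245831 and 23601776 in the controls.

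The deposited tables themselves differed for some genes. Reads were at 0 in all 4 libraries of the first table and above 1 CPM in all 4 of the second for 24 genes, and all 24 were called downregulated. The reverse was seen for 0 genes. WT, which had no Oct4 depletion, was past 0.58 from the controls for 3629 genes, 27.6% of those compared. For this reason each group below is also given as Tc 2D against WT, both as deposited in 1 table. That second comparison changes the cell line, shares the Tc 2D library with the first, and so is not an independent repeat of it.

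Pou5f1 (ENSMUSG00000024406, NCBIM37 chromosome 17, 35642982 to 35647721) had 24 CPM at Tc 2D, 642 and 582 CPM in the controls and 343 CPM in WT. Tc 2D was therefore far below every other library, and the controls were 25.5-fold higher. Reads of the endogenous gene and of a transgene cannot be separated in gene counts. Lefty1 (ENSMUSG00000038793, chromosome 1, 182865153 to 182868531), a secreted Nodal antagonist, had 0.441 CPM at Tc 2D, 19.7 and 20.7 CPM in the controls and 222 CPM in WT. Hand1 (ENSMUSG00000037335, chromosome 11, 57642207 to 57646320), a trophoblast transcription factor, had 70.3 CPM at Tc 2D, 5.35 and 3.23 CPM in the controls and 0.305 CPM in WT. Igf2 (ENSMUSG00000048583, chromosome 7, 149836673 to 149852721), an imprinted fetal growth factor, had 744 CPM at Tc 2D, 32.1 and 26.4 CPM in the controls and 6.21 CPM in WT. The log2 differences were -4.62 for Pou5f1, -3.88 for Lefty1, 3.75 for Hand1 and 4.62 for Igf2. Between the controls these genes differed by -0.14, 0.071, -0.59 and -0.27, and only Hand1 had a control gap past 0.58, with Tc 2D still above both.

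Over all genes, 3208 were upregulated, 24.4% of those compared, and 3115 were downregulated, 23.7%. Differences past 2 were seen for 219 upregulated and 389 downregulated genes. The SD of the differences was 0.968, against 0.268 between the 2 controls, and 387 genes, 2.95%, were past 0.58 between the controls. WT against the controls had an SD of 0.693. The upregulated gene nearest the threshold stood at 0.58006 and the nearest uncalled gene at 0.579089. On the lower side these were -0.580846 and -0.579977. The split depends on the scale. On the CPM as deposited it was 2381 upregulated and 3963 downregulated, and on total reads on genes 5724 and 1776, and the median of all genes moved from 0.0091 to -0.17 and 0.44. A group is therefore best read against the median of all genes.

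**Figure D1:**
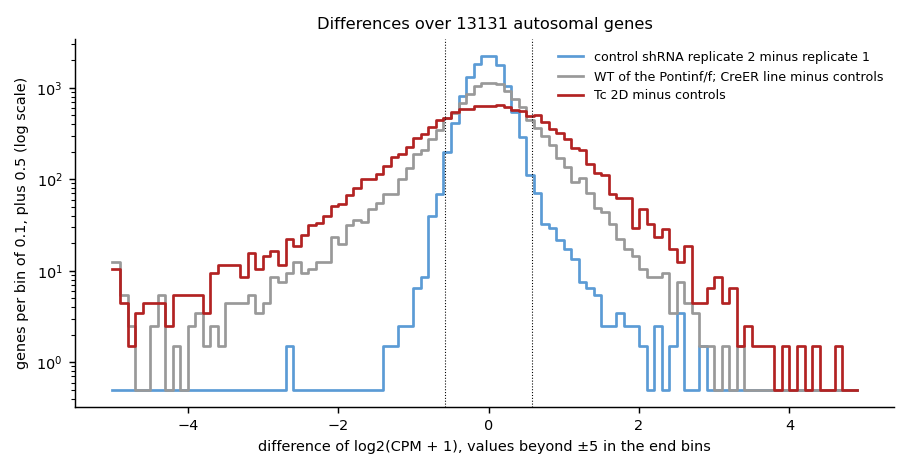
Number of autosomal genes (vertical axis, log scale, with 0.5 added) in each bin of 0.1 of the difference of log2(CPM + 1) (horizontal axis), for Tc 2D minus the mean of the controls (red), the second minus the first control (blue) and WT minus the controls (grey), with dotted lines at the threshold of 0.58. The red curve is the broadest, with an SD of 0.968, the blue the narrowest, with 0.268, and the grey lies between them.

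Lists of genes for each pathway and lineage were then read one by one, each as the number of compared members past the threshold and the median difference, beside the shares of 24.4% and 23.7% and the median of 0.0091 over all genes. In the comparison of Tc 2D with WT, the same thresholds called 24.2% of all genes upregulated and 24.3% downregulated. The filter asked for more than 1 CPM in any of the 3 ZHBTc4 libraries. A gene at or below 1 CPM in both controls thus entered through Tc 2D alone and could not be called downregulated. Cdx2, Gata6, Foxf1a, Isl1, Lhx2, Nr2f2, Cyp26b1, Oasl2, Ifih1, Dkk1 and Rnf43 were among such genes. Likewise, a gene at or below 1 CPM at Tc 2D entered only through a control. Lists share some members, so their counts are not separate, and a share near that of all genes is not a result about the list. The shares also varied with the control level, which enters the difference itself, so bins and calls are not independent. Of 3246 genes in the highest of 4 bins of control CPM, 184 were upregulated and 1259 downregulated. In the lowest bin, also of 3246, these were 1323 and 679. The bins hold protein-coding genes with ChIP reads at their promoters, as described below. No list was matched for level, which limits the reading of lists of abundant genes. On total reads on genes, where the median of all genes was 0.44, the medians of the cholesterol, Polycomb, HIF, actin, MYC, Wnt and LIF lists changed from negative to positive, reaching 0.15 at most. The Ruvbl and interferon lists, whose medians were near 0, reached 0.43 and 0.44, close to the median of all genes.

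The pluripotency network was lower almost throughout. Of 16 core and naive pluripotency factors, 0 were upregulated and 15 downregulated, with a median difference of -2.68 against the controls and -1.75 against WT. Nanog, a homeodomain factor of the core network, had 86.6 CPM at Tc 2D, 916 and 783 CPM in the controls and 418 CPM in WT. Sox2, the partner with which Oct4 binds DNA, had 147 CPM at Tc 2D, 564 and 516 CPM in the controls and 521 CPM in WT, and was thus less reduced than Nanog, at -1.87 against -3.28. The largest falls were those of Klf2, Prdm14, Zfp42 and Klf4. Klf2, a Krüppel-like factor of the naive state, had 4.93 CPM at Tc 2D, 109 and 79.7 CPM in the controls and 102 CPM in WT. Prdm14, which keeps ES cells from the primed state, had 0.882 CPM at Tc 2D, 29.1 and 23.2 CPM in the controls and 22.2 CPM in WT. Klf4, a target of LIF signalling, had 18.6 CPM at Tc 2D, 226 and 208 CPM in the controls and 293 CPM in WT. In Klf2, Prdm14 and Klf4 every reference library stood well above Tc 2D. Esrrb, an orphan nuclear receptor, differed by -3.32, Gbx2 by -3.13, Foxd3 by -3.04, Klf5 by -1.57, Tcfcp2l1 by -1.37, Sall4 by -0.83 and Nr5a2 by -0.81, these being named for their roles. Tbx3 was the member not called. It had 251 CPM at Tc 2D, 239 and 181 CPM in the controls and 103 CPM in WT, a T-box factor that ES cells share with trophectoderm.

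Zfp42 (Rex1), a zinc finger factor often used as a pluripotency reporter, gave a different answer with each reference. It had 86.7 CPM at Tc 2D, 1210.3 and 914 CPM in the controls and 69.9 CPM in WT, so that Tc 2D lay -3.6 from the controls but 0.31 from WT, in which the gene was already low.

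The octamer ATGCAAAT, the DNA word that POU factors are known to bind, was searched on both strands of RefSeq promoters (GRCm38.p6, 250 bases before to 50 after the start). It was present in 1.74% of all 32851 promoters, in 2.01% of 2681 promoters of downregulated genes, in 0.911% of 2965 of upregulated genes and in 1.23% of 6236 of genes not called. For genes lower by more than 2 and also lower against WT it was in 5 of 272 promoters, 1.84%, near the share of all promoters. For genes higher by more than 2 and also higher against WT it was in 2 of 195, 1.03%. Not every gene named from the lists had its promoter considered for printing. Among those considered, Zfp42 and Spp1 were the most strongly downregulated with a match and Cdx2 was the upregulated gene with one. These promoters are shown 5′ to 3′ along the gene, with the match in capitals. Zfp42 lies on the minus strand at chr8:43306960-43307259 with the match on the opposite strand, Spp1 on the plus strand at chr5:104435942-104436241 and Cdx2 on the minus strand at chr5:147307200-147307499, both with the match on the gene's own strand. The first base of the match was at -186, -210 and -147 from the start. A match is a description of these letters and no evidence of binding.
Zfp42: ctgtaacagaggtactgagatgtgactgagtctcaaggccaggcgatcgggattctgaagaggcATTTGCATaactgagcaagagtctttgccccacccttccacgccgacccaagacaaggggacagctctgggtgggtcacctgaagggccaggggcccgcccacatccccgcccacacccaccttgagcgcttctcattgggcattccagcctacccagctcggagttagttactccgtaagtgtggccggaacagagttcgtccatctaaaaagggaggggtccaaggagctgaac
Spp1: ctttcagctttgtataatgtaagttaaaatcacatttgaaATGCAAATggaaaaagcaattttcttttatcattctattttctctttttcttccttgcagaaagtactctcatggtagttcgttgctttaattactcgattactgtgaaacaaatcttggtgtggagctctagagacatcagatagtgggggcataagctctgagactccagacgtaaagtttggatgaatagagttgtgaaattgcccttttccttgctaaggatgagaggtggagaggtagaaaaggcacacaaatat
Cdx2: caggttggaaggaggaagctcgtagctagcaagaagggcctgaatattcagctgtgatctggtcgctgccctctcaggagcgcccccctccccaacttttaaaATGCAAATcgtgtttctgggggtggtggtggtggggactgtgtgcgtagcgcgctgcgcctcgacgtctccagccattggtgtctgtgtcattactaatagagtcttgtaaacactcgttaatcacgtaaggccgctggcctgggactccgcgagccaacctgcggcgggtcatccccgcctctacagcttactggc

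ES cell marker genes gave the lowest median of all lists. Of 26 compared, 0 were upregulated and 23 downregulated, with medians of -2.97 against the controls and -3.09 against WT. Tdgf1 (Cripto, ENSMUSG00000032494, chromosome 9, 110842114 to 110848662), a co-receptor for Nodal, had 8.86 CPM at Tc 2D, 739 and 831 CPM in the controls and 772 CPM in WT, a difference of -6.32. Trh, the precursor of thyrotropin-releasing hormone, had 0.281 CPM at Tc 2D, 43.9 and 51.7 CPM in the controls and 124 CPM in WT. Jam2, a cell adhesion molecule, had 4.45 CPM at Tc 2D, 192 and 184 CPM in the controls and 114 CPM in WT. Fgf4, the main autocrine FGF of ES cells, had 8.06 CPM at Tc 2D, 236 and 227 CPM in the controls and 314 CPM in WT. All these were low at Tc 2D alone. Among members picked for their roles, Spp1 (osteopontin) had 134 CPM at Tc 2D, 1064 and 932 CPM in the controls and 425 CPM in WT, Utf1 39.8 CPM at Tc 2D against 262 and 232 CPM in the controls, and Dppa5a 61.6 CPM at Tc 2D against 1185 and 1051 CPM in the controls. Dppa3 (Stella) differed between the references, with 0.281 CPM at Tc 2D, 4.15 and 12.4 CPM in the controls and 63.4 CPM in WT. Slc2a3 and Alpl, a glucose transporter and the tissue-nonspecific alkaline phosphatase, were not called, with differences of 0.30 and 0.51, and Rif1 differed by -0.54. Nanog, Dppa5a and several others have processed pseudogenes, between which reads could be split, which was not tested.

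Genes of the formative and primed state, which ES cells take up when they leave naive pluripotency towards the epiblast, were also lower. Of 13 compared, 9 were downregulated and 1 upregulated, with medians of -1.31 and -1.18. Otx2, the factor that directs this exit, had 1.88 CPM at Tc 2D, 30.4 and 32.9 CPM in the controls and 23.3 CPM in WT. Zic2 had 3.17 CPM at Tc 2D against 42.7 and 35.9 CPM in the controls, and Etv5, an ETS factor downstream of FGF, had 60.9 CPM at Tc 2D against 502 and 501 CPM in the controls. Fgf5 and Pou3f1, defining genes of the primed epiblast, were below 1 CPM in all 3 ZHBTc4 libraries. The member that was upregulated was Cdh2 (N-cadherin), at 9.14 CPM at Tc 2D against 3.18 and 4.82 CPM in the controls.

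Members of the Nodal pathway were called at shares near those of all genes. Nodal signals through activin receptors and Smad2 and Smad3, and Tdgf1 serves as its co-receptor. Of 17 members compared, 5 were upregulated and 5 downregulated against the controls, and 5 and 6 against WT, with medians of 0.018 and 0.22. Each share against the controls, 29.4%, was close to the 24.4% and 23.7% of all genes, so the values below describe single members. Lefty2, a Nodal antagonist and target, had 0.120 CPM at Tc 2D, 31.4 and 58.3 CPM in the controls and 220.0 CPM in WT. Gdf3, a TGF-beta ligand that works with Tdgf1, had 1.64 CPM at Tc 2D, 40 and 45.5 CPM in the controls and 62.4 CPM in WT. Foxh1, the Smad partner in the nucleus, had 14.2 CPM at Tc 2D, 21.3 and 24 CPM in the controls and 38.3 CPM in WT. Nodal itself was just short of the threshold against the controls, with 29.3 CPM at Tc 2D, 42.5 and 44.6 CPM in the controls and 76.8 CPM in WT and differences of -0.56 against the controls and -1.36 against WT. Tdgf1, Lefty1, Lefty2 and Gdf3 thus lay lowest at Tc 2D, and the Lefty genes were in turn lower in the controls than in WT. The upregulated members were Smad3 (80.7 CPM at Tc 2D against 26 and 23.6 CPM in the controls), Furin (61.7 CPM at Tc 2D against 22.6 and 20.4 CPM in the controls), Smad7 (216 CPM at Tc 2D against 103 and 79.4 CPM in the controls), Acvr2a (30.2 CPM at Tc 2D against 15.4 and 16.5 CPM in the controls) and Acvr2b (19.4 CPM at Tc 2D against 11.6 and 12.7 CPM in the controls), namely a signal transducer, the protease that matures the ligand, an inhibitory Smad and the activin type II receptors. Cer1 and Gdf1 were at or near 0 in every library.

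The FGF to ERK pathway was lower at its ligand and at its feedback targets. FGF4 made by ES cells signals to ERK and induces Etv4, Etv5, the Sprouty proteins and Dusp6. Of 22 members, 11 were downregulated and 3 upregulated, with medians of -0.58 and -0.86. The ligands Fgf4, Fgf17 and Fgf15 differed by -4.68, -2.61 and -2.07. Of the targets, Spry4 had 14.8 CPM at Tc 2D, 66.9 and 101 CPM in the controls and 92.8 CPM in WT. Spry2 and Dusp6, picked for their roles, had differences of -1.65 and -1.25, and Egr1, an immediate early gene, -1.78. Among the receptors, Fgfr2, the receptor through which trophoblast stem cells respond to FGF, had 59.4 CPM at Tc 2D, 8.95 and 8.3 CPM in the controls and 21.9 CPM in WT. Fgfr1 was just past the threshold, at 0.59, and Fgfr3 and Fgfr4 were not called, at 0.045 and 0.051. Fos was also upregulated, at 8.98 CPM at Tc 2D against 3.46 and 3.74 CPM in the controls.

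In the LIF and STAT3 pathway, which supports naive self-renewal, 7 of 16 members were downregulated and 1 was upregulated, with medians of -0.30 and -0.48. The downregulated members were led by the target factors Klf4, Gbx2, Fgl2 and Tcfcp2l1. Fgl2 differed by -2.27 against the controls but by -0.48 against WT, in which it had 0.509 CPM. Tcfcp2l1 differed by -1.37 against the controls and by -1.40 against WT. Lifr, the receptor, differed by -1.28 against the controls but by -0.48 against WT. Il6st, Jak1 and Stat3 were not called, at -0.35, 0.23 and 0.40, and neither was the feedback inhibitor Socs3, at -0.23. The upregulated member was the ligand. Lif had 39.9 CPM at Tc 2D, 3.46 and 3.31 CPM in the controls and 9.52 CPM in WT, above all references.

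BMP pathway and Id genes were higher on balance. BMPs act through Smad1, Smad5 and Smad9, and induce Id genes and the inhibitory Smads. Of 20 members, 10 were upregulated and 2 downregulated, with medians of 0.57 against the controls and 1.18 against WT. Msx2, a homeodomain target, had 9.7 CPM at Tc 2D, 1.25 and 0.903 CPM in the controls and 0.713 CPM in WT. Bmp8b, a ligand, had 19.9 CPM at Tc 2D, 3.87 and 3.14 CPM in the controls and 2.49 CPM in WT. Smad6, an inhibitory Smad, had 28.2 CPM at Tc 2D, 6.83 and 4.56 CPM in the controls and 5.55 CPM in WT. Id2, an inhibitor of helix-loop-helix factors, had 58.8 CPM at Tc 2D, 14.3 and 17.5 CPM in the controls and 16.2 CPM in WT. The receptor Acvr1 and the transducer Smad1 had differences of 1.66 and 1.48. Id1 was downregulated against the controls and upregulated against WT, at -0.77 against the controls and 1.86 against WT, and the 2 controls themselves differed by -0.80 in Id3. Bmp4 was not called, at 0.22.

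Of 20 Wnt targets and TCF factors, 6 were upregulated and 7 downregulated, with medians of -0.31 and -0.29. These shares, 30% and 35%, were not far from those of all genes. Dkk1 and Rnf43 passed the filter only through their level at Tc 2D, so the count of rises is not free of the filter. Ccnd1 (cyclin D1) had 11.8 CPM at Tc 2D, 129 and 136 CPM in the controls and 139.8 CPM in WT. Sfrp1, a secreted Wnt antagonist, had 19 CPM at Tc 2D, 161 and 157 CPM in the controls and 179 CPM in WT. Fzd5, a receptor, had 28.9 CPM at Tc 2D, 251 and 195 CPM in the controls and 93.7 CPM in WT. Lef1 had 0.0802 CPM at Tc 2D, 1.85 and 7.23 CPM in the controls and 15.5 CPM in WT, so its level already varied between references. Upregulated were the ligands Wnt7b (40.7 CPM at Tc 2D against 2.44 and 2.58 CPM in the controls) and Wnt6 (7.21 CPM at Tc 2D against 1.66 and 1.08 CPM in the controls) and the antagonists Dkk1 (7.33 CPM at Tc 2D against 0.138 and 0.473 CPM in the controls) and Rnf43 (4.09 CPM at Tc 2D against 0.830 and 0.903 CPM in the controls), the last not past 0.58 against WT, at 0.22. Axin2, a general Wnt target picked for its role, had a difference of 0.68.

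**Figure D2:**
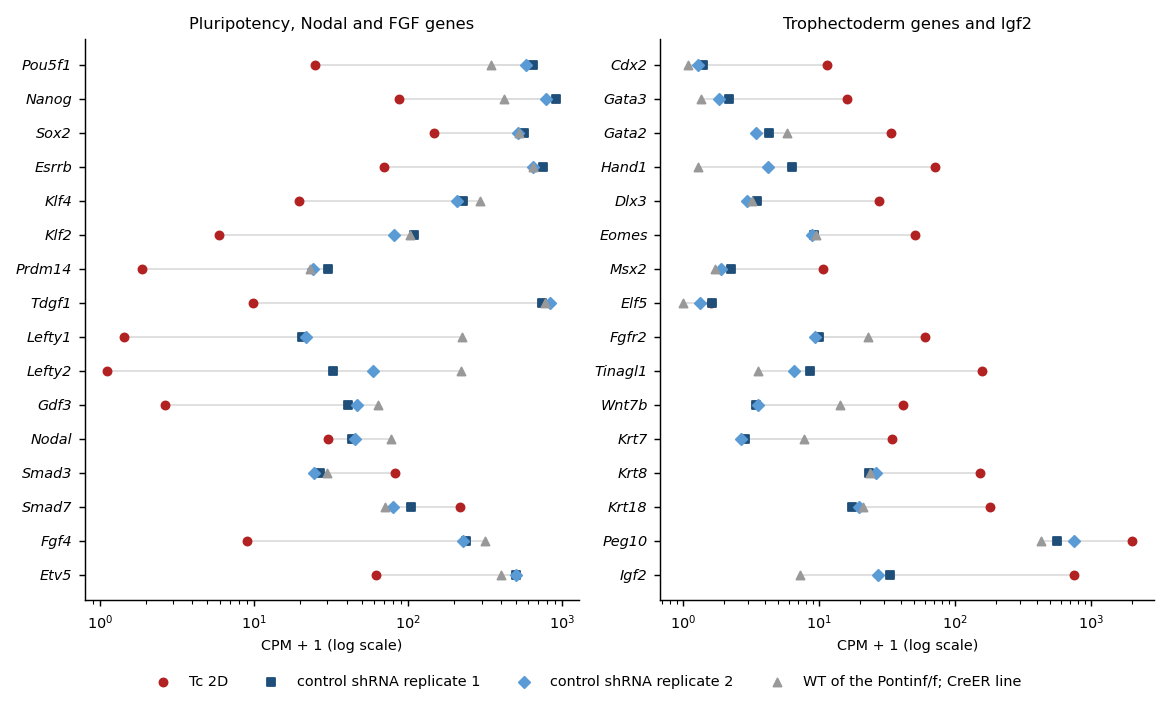
CPM plus 1 (horizontal axes, log scale) of genes of pluripotency, Nodal and FGF signalling (left) and of trophectoderm genes and Igf2 (right), with 1 point each for Tc 2D (red circles), the controls (blue squares and diamonds) and WT (grey triangles). Tc 2D and WT are on the scale of the controls. On the left Tc 2D is the lowest point except for Smad3 and Smad7, and on the right it is the highest except for Elf5.

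Trophectoderm transcription factors were higher. Of 17 compared, 10 were upregulated and 1 downregulated, with medians of 0.91 against the controls and 1.28 against WT. Cdx2 (ENSMUSG00000029646, chromosome 5, 148112381 to 148118846), the caudal-type factor that specifies trophectoderm, had 10.5 CPM at Tc 2D, 0.415 and 0.301 CPM in the controls and 0.102 CPM in WT. Gata3 had 15.2 CPM at Tc 2D, 1.2 and 0.860 CPM in the controls and 0.356 CPM in WT, and Gata2 had 33 CPM at Tc 2D, 3.32 and 2.45 CPM in the controls and 4.78 CPM in WT. These GATA factors act beside and after Cdx2 in trophoblast. Eomes, needed for trophoblast stem cells, had 50.1 CPM at Tc 2D, 8.21 and 7.87 CPM in the controls and 8.6 CPM in WT, and Dlx3, a homeodomain factor of the placenta, had 26.7 CPM at Tc 2D, 2.49 and 1.98 CPM in the controls and 2.24 CPM in WT. In each of these, Tc 2D was above all 3 references. The differences from the mean of the controls were 3.75 for Hand1, 3.13 for Gata2, 3.1 for Dlx3, 3.08 for Cdx2, 2.99 for Gata3 and 2.5 for Eomes.

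Other members of this list did not follow. Elf5, which marks committed trophoblast stem cells, was below 1 CPM in every library, with 0.601 CPM at Tc 2D. Tead4, the factor upstream of Cdx2, had a difference of -0.28, Ets2 of -0.27, Ascl2 of -0.086 and Gcm1, a syncytiotrophoblast factor, of -0.091. Tcfap2c (AP-2 gamma) was upregulated against the controls and downregulated against WT, at 0.91 against the controls and -1.16 against WT. Hopx, a homeodomain-only protein, was the downregulated member, with 0.120 CPM at Tc 2D against 1.98 and 2.49 CPM in the controls.

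Products of trophoblast cells rose with them. Of 14 compared, 10 were upregulated and 0 downregulated, with medians of 1.61 and 1.5. Tinagl1, an extracellular matrix protein, had 158 CPM at Tc 2D, 7.57 and 5.59 CPM in the controls and 2.6 CPM in WT. Wnt7b had 40.7 CPM at Tc 2D, 2.44 and 2.58 CPM in the controls and 13.3 CPM in WT. Lcp1 (plastin 2) had 15.7 CPM at Tc 2D, 2.81 and 2.8 CPM in the controls and 1.27 CPM in WT, and the gap junction gene Gjb5 had 76.6 CPM at Tc 2D, 20.5 and 16.4 CPM in the controls and 24.2 CPM in WT. Peg10, a retrotransposon-derived imprinted gene needed for the placenta, was already abundant, with 1994 CPM at Tc 2D, 559 and 751 CPM in the controls and 429 CPM in WT. Genes of later placental cells were not detected at this depth. Prl3d1, Prl3b1, Tpbpa and Ctsj, which mark giant cells and other cells of the formed placenta, had 0 reads at Tc 2D, where 3 reads would be 0.120 CPM, and 0 in the controls. Slc2a1, Cdh3, Ndrg1 and Lgals3 were not called.

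The keratins of simple epithelia were all higher, 4 of 4 compared, with medians of 2.95 and 2.42. Keratins 8 and 18 form the filament pair of the first epithelium of the embryo. Krt8 had 152 CPM at Tc 2D, 22.2 and 25.2 CPM in the controls and 22.6 CPM in WT, and Krt18 had 179 CPM at Tc 2D, 16.5 and 18.8 CPM in the controls and 20.2 CPM in WT. Krt7 had 33.6 CPM at Tc 2D, 1.85 and 1.68 CPM in the controls and 6.72 CPM in WT, and Krt19 had 12.4 CPM at Tc 2D, 6.09 and 6.49 CPM in the controls and 8.09 CPM in WT, the smallest rise of the group and not past 0.58 against WT, at 0.56. Krt20 and Krt23 were below 1 CPM in these libraries.

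Genes of epithelial junctions gave a mixed picture that turned with the reference. Against the controls 12 of 25 were upregulated and 5 downregulated, with a median of 0.22, and against WT 6 and 12, with a median of -0.57. The median also turned on the control used, at 0.82 against the first control and 0.20 against the second. Some desmosomal genes were higher by both references, whereas Jup (plakoglobin) and Pkp3 (plakophilin 3) were downregulated, with 65.8 CPM at Tc 2D against 119 and 132 CPM in the controls and 7.17 CPM at Tc 2D against 11.7 and 12.5 CPM in the controls. Dsc2 (desmocollin 2) had 50.9 CPM at Tc 2D, 5.58 and 3.91 CPM in the controls and 3.82 CPM in WT, Dsp (desmoplakin) had 126 CPM at Tc 2D, 35.7 and 34.5 CPM in the controls and 18 CPM in WT, and Ppl (periplakin) had 21.4 CPM at Tc 2D, 6.41 and 7.27 CPM in the controls and 9.37 CPM in WT. Claudins 4 and 7 and Tjp3, by contrast, were above the controls but below WT, with 124 CPM at Tc 2D, 42.7 and 54.2 CPM in the controls and 226 CPM in WT for Cldn4. Cdh1 (E-cadherin) was not called against the controls, at -0.39. Epcam had 49 CPM at Tc 2D, 63.1 and 134 CPM in the controls and 309 CPM in WT, and Esrp1, an epithelial splicing factor, had 5.85 CPM at Tc 2D, 2.49 and 23.6 CPM in the controls and 89.6 CPM in WT, so the 2 controls differed by 1.08 and 2.82. Against the first control alone, Esrp1 was higher at Tc 2D, by 0.97.

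Among 21 imprinted genes, 7 were upregulated and 8 downregulated against the controls, and 8 and 8 against WT, with medians of 0.039 and -0.018. Igf2 came first among the rises ranked by size below, with Tc 2D 4.62 above the controls. Sfmbt2, a Polycomb-like gene of the trophoblast, had 72 CPM at Tc 2D, 9.13 and 15.9 CPM in the controls and 43.1 CPM in WT. Peg10 and its neighbour Sgce on chromosome 6 were higher together, by 1.6 and 1.7. Igf2r, the receptor that clears Igf2, had 332 CPM at Tc 2D, 195 and 188 CPM in the controls and 162 CPM in WT. The downregulated members were led by Cdkn1c (11.6 CPM at Tc 2D against 50.5 and 37.6 CPM in the controls), Ndn (4.33 CPM at Tc 2D against 13.9 and 11.8 CPM in the controls), Snrpn (83.6 CPM at Tc 2D against 166 and 232 CPM in the controls) and Grb10 (7.94 CPM at Tc 2D against 18 and 19.7 CPM in the controls). Cdkn1c, a CDK inhibitor that lies in the same imprinted cluster of chromosome 7 as Igf2, was close to WT, at -0.018. Peg3 had 237 CPM at Tc 2D, 54.7 and 333 CPM in the controls and 509 CPM in WT, a control gap of 2.59 that left it without a call. H19 and Meg3 were not analysed here.

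Primitive endoderm, the other extraembryonic lineage of the blastocyst, was read by its regulators and receptors. Of 12 compared, 6 were upregulated and 4 downregulated, with medians of 0.28 and 0.26. Lrp2 (megalin), an endocytic receptor also present in other epithelia, had 199.7 CPM at Tc 2D, 18.9 and 33.4 CPM in the controls and 30.7 CPM in WT and made up most of the summed level of the list at Tc 2D, which was 243 CPM against 44.8 and 65.2 CPM in the controls. Gata6, the factor that specifies the lineage, had 7.29 CPM at Tc 2D, 0.415 and 0.946 CPM in the controls and 1.02 CPM in WT. Gata4 had 5.45 CPM at Tc 2D, 0.876 and 1.76 CPM in the controls and 6.01 CPM in WT, and therefore stood close to WT, at -0.12. Sox17 and Foxa2 were below 1 CPM at Tc 2D and in the controls, and Sox7 stood at 0.842 CPM. Fst (follistatin), the largest fall, had 0.200 CPM at Tc 2D against 4.98 and 6.67 CPM in the controls.

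Of 8 endoderm products, 3 were upregulated and 4 downregulated against the controls, and 3 and 1 against WT, and the median turned from -0.23 to 0.19. Apoe had 43.6 CPM at Tc 2D, 314 and 472 CPM in the controls and 751 CPM in WT. Dkk1 had 7.33 CPM at Tc 2D, 0.138 and 0.473 CPM in the controls and 0.0509 CPM in WT and Plat, tissue plasminogen activator, 17.4 CPM at Tc 2D, 4.98 and 3.1 CPM in the controls and 0.916 CPM in WT. Of these, Dkk1 passed the filter only through its level at Tc 2D. The defining visceral endoderm products Afp, Ttr, Apoa1 and Apoa4 were below 0.5 CPM at Tc 2D. Of 16 basement membrane genes, 6 were upregulated and 4 downregulated, with medians of 0.54 and 0.64. The collagen IV chains were the largest rises. Col4a2 had 130.5 CPM at Tc 2D, 25.2 and 22.7 CPM in the controls and 20.4 CPM in WT, and Col4a1 had 234 CPM at Tc 2D, 59.2 and 51.9 CPM in the controls and 37.9 CPM in WT. Serpinh1, the collagen chaperone, had 150.1 CPM at Tc 2D, 41.1 and 39.2 CPM in the controls and 88.6 CPM in WT, Lama5 546 CPM at Tc 2D against 179 and 215 CPM in the controls, and Hspg2 (perlecan) 753 CPM at Tc 2D against 300.1 and 321 CPM in the controls. Lamc1 and Nid2 were below the controls, at -0.88 and -1.0, and near WT, at -0.011 and -0.17.

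Mesoderm and neural genes were mostly too low to compare. Of 22 mesoderm and primitive streak genes, 13 did not pass the filter, T (brachyury) and Mixl1 among them. Of the 9 compared, 6 were upregulated and 2 downregulated, with medians of 0.82 and 0.59. Foxf1a and Isl1 passed the filter only through their level at Tc 2D, so the count of rises is not free of the filter. Tbx20 had 10.5 CPM at Tc 2D, 0.554 and 2.06 CPM in the controls and 3.1 CPM in WT, Isl1 3.85 CPM at Tc 2D against 0.738 and 0.774 CPM in the controls, Foxf1a 1.56 CPM at Tc 2D against 0.0461 and 0.043 CPM in the controls and Mesp2 4.97 CPM at Tc 2D against 1.89 and 1.85 CPM in the controls, so the rises ended at levels of at most 10.5 CPM. Of 8 neural and ectoderm genes compared, 5 were downregulated and 2 upregulated against the controls, and 6 and 2 against WT, with medians of -1.62 and -1.38. The median was -0.92 against the first control and -2.04 against the second. Olig2, called downregulated, had 0.160 CPM at Tc 2D and 0 and 3.66 CPM in the controls. Stmn2 and Tubb3, neuronal microtubule genes that these ES cells expressed, had 14.5 CPM at Tc 2D, 366 and 377 CPM in the controls and 279 CPM in WT and 5.33 CPM at Tc 2D, 54.6 and 48.5 CPM in the controls and 73.9 CPM in WT. Lhx2 and Nefl were higher, at 3.69 CPM at Tc 2D against 0.969 and 0.559 CPM in the controls and 20.9 CPM at Tc 2D against 7.1 and 11.1 CPM in the controls. Nes was not called, at -0.19, and Pax6 was below 1 CPM in the 3 ZHBTc4 libraries.

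**Figure D3:**
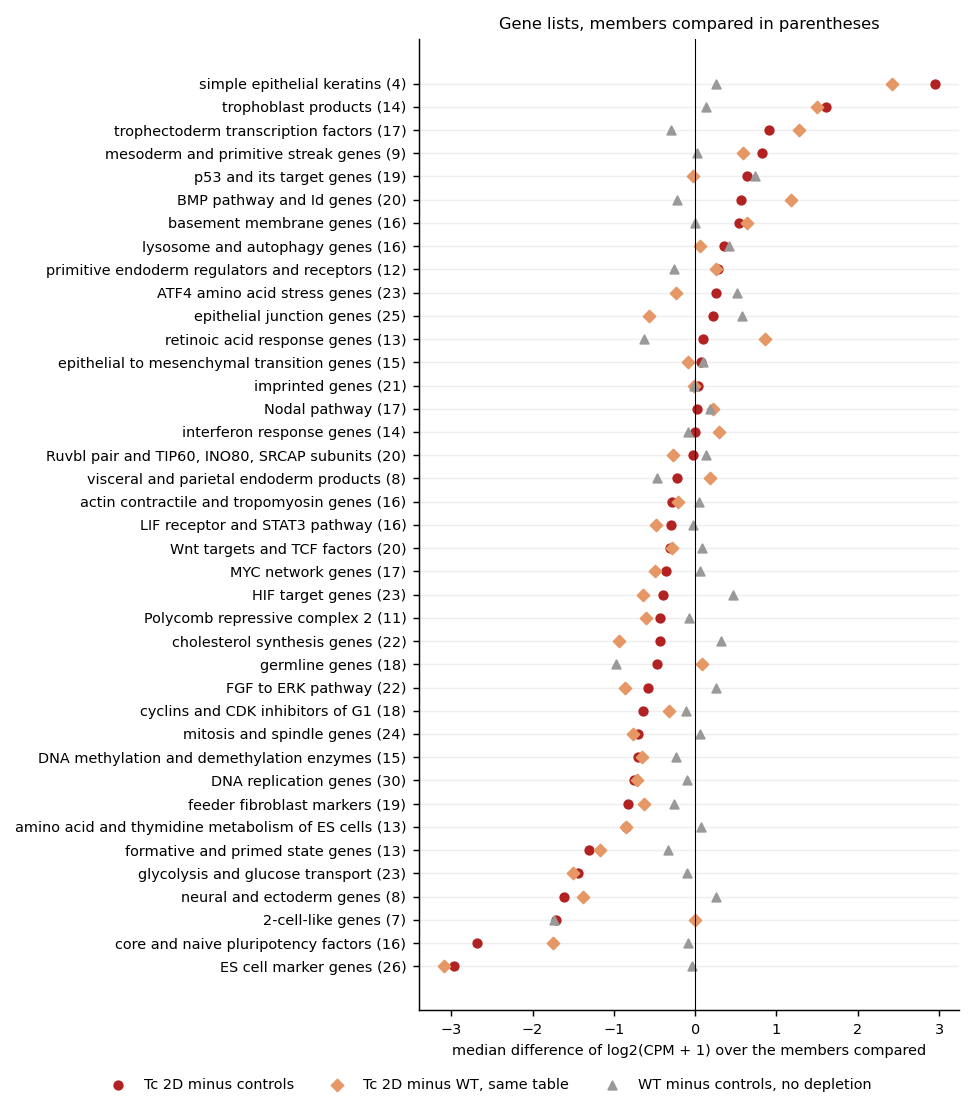
Median difference of log2(CPM + 1) (horizontal axis) over the compared members of each of the 39 gene lists (vertical axis, number of members in parentheses), for Tc 2D minus controls (red circles), Tc 2D minus WT in the same table (orange diamonds) and WT minus controls, with no depletion in either (grey triangles). The ES cell marker, glycolysis and trophoblast product lists have red and orange points together and far from the grey, the pluripotency list has red at -2.68 and orange at -1.75, and for the 2-cell-like and p53 lists the grey lies with the red and the orange lies near 0.

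Glycolytic genes formed the lowest of the metabolic lists. Of 23 enzymes and transporters, 15 were downregulated and 2 upregulated, with medians of -1.44 against the controls and -1.5 against WT, while WT and the controls differed by -0.10. The summed level of the list was 6648 CPM at Tc 2D, 21970.5 and 20583 CPM in the controls and 14109 CPM in WT. Slc16a3, the lactate exporter, had 11.3 CPM at Tc 2D, 133 and 94.7 CPM in the controls and 98.4 CPM in WT. Ldha, which makes lactate from pyruvate, had 214 CPM at Tc 2D, 1976 and 1859 CPM in the controls and 1048 CPM in WT. Pkm2, pyruvate kinase, had 774 CPM at Tc 2D, 5309 and 5019 CPM in the controls and 2609 CPM in WT, and Eno1, enolase, had 383 CPM at Tc 2D, 2416 and 2341 CPM in the controls and 1753 CPM in WT. Nearly every step from hexokinase to lactate had a member that was lower, with Hk2 at -2.3, Pfkl at -2.03, Aldoa at -1.79, Tpi1 at -2.3 and Pgam1 at -2.32. Gapdh had 896 CPM at Tc 2D, 4552 and 4598 CPM in the controls and 1565 CPM in WT, of which a large part of the gap to the controls was shared by WT. The isoforms that moved the other way were Ldhb (647 CPM at Tc 2D, 272 and 242 CPM in the controls and 466 CPM in WT) and Hk1 (211 CPM at Tc 2D, 128 and 112 CPM in the controls and 127 CPM in WT). Slc2a3 and Slc2a1, the glucose importers, were not called, at 0.30 and -0.36, and Pfkm and Pfkfb3 differed by -0.0022 and 0.048. Several glycolytic genes have many processed pseudogenes, between which reads could be split differently in the 2 tables, which was not tested.

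Targets of the hypoxia-inducible factor HIF, which include glycolytic genes, were partly lower. Of 23, 10 were downregulated and 3 upregulated, with medians of -0.39 and -0.64. Ndufa4l2, a mitochondrial protein, had 0.120 CPM at Tc 2D, 11.4 and 9.33 CPM in the controls and 19.9 CPM in WT. Bnip3, a mitophagy receptor, had 21.3 CPM at Tc 2D, 92.8 and 80.5 CPM in the controls and 160.1 CPM in WT. Kdm3a, a histone demethylase, had 65.1 CPM at Tc 2D, 169.9 and 176 CPM in the controls and 143 CPM in WT. Egln3, Egln1 and Ddit4 were not called against the controls, at -0.06, -0.033 and 0.16. The upregulated members were Vegfa (109 CPM at Tc 2D, 43.5 and 37.3 CPM in the controls and 62.9 CPM in WT), Car9 (4.01 CPM at Tc 2D, 0.646 and 1.03 CPM in the controls and 0.509 CPM in WT) and Bhlhe40, the last not against WT, at -0.20. 

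Lists of amino acid and lipid metabolism were read next. Of 13 genes of the threonine, glycine and thymidine pathways that ES cells rely on, 10 were downregulated and 0 upregulated, with medians of -0.85 and -0.86. Upp1 (uridine phosphorylase) had 20.2 CPM at Tc 2D, 288 and 273 CPM in the controls and 278 CPM in WT, Mthfd1 251 CPM at Tc 2D against 541 and 552 CPM in the controls, and Gldc, the glycine decarboxylase, 103 CPM at Tc 2D against 195 and 205 CPM in the controls. The 23 ATF4 stress genes turned with the reference, with 7 upregulated and 5 downregulated against the controls but 6 and 10 against WT, and medians of 0.25 and -0.24. Ddit3 (CHOP) had 79.6 CPM at Tc 2D, 11.6 and 9.68 CPM in the controls and 20.7 CPM in WT, Trib3 139 CPM at Tc 2D, 33.9 and 28.2 CPM in the controls and 47.9 CPM in WT, and Cebpb 6.93 CPM at Tc 2D against 1.11 and 0.946 CPM in the controls. Atf4 itself and Asns were not called, at 0.039 and -0.16, and Cth, an enzyme of cysteine synthesis, had 36.4 CPM at Tc 2D, 152 and 157 CPM in the controls and 165 CPM in WT. Of 22 cholesterol synthesis genes, 9 were downregulated and 1 upregulated against the controls, and 17 and 0 against WT, with medians of -0.44 and -0.94. Idi1 differed by -1.66, Insig1, the sterol sensor partner, by -1.18, and Srebf2, the regulator of the pathway, by -0.033.

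Genes of cell division were lower on balance. Of 30 DNA replication genes, 0 were upregulated and 16 downregulated, with medians of -0.75 and -0.72, and of 24 mitosis and spindle genes 0 and 15, with medians of -0.70 and -0.77. Pcna, the polymerase clamp, had 148 CPM at Tc 2D, 433 and 446 CPM in the controls and 322 CPM in WT. The helicase subunits Mcm3, Mcm6, Mcm5 and Mcm2 had differences of -1.44, -1.28, -1.2 and -0.95. Nusap1, a spindle protein, had 41.3 CPM at Tc 2D, 119 and 133 CPM in the controls and 183 CPM in WT, and Cdk1 had 82.4 CPM at Tc 2D, 206 and 219 CPM in the controls and 189 CPM in WT. Plk1, Mad2l1 and Ccnb1 differed by -1.13, -1.09 and -1.02. Cdt1, Cdc45, Cenpe and Ndc80 were not called, at -0.12, 0.15, 0.10 and 0.052.

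Among G1 regulators, 9 of 18 were downregulated and 4 upregulated, with medians of -0.64 and -0.32. Ccnd1 fell most, from 129 and 136 CPM in the controls to 11.8. Ccne1 (cyclin E1) had 118 CPM at Tc 2D, 238 and 289.6 CPM in the controls and 273 CPM in WT, and Cdk4 211 CPM at Tc 2D, 406 and 412 CPM in the controls and 359 CPM in WT. Cdkn1a (p21), a CDK inhibitor and p53 target, had 108 CPM at Tc 2D, 27 and 37 CPM in the controls and 102 CPM in WT, and was therefore high against the controls alone, as was Rb1, at 1.28 against the controls and -0.081 against WT. The wider p53 list behaved likewise. Of 19 members 10 were upregulated and 1 downregulated against the controls, but 4 and 5 against WT, with medians of 0.64 and -0.028, and WT lay 0.73 above the controls. Members that were higher by both references were Mdm2 (1.81 against the controls and 1.07 against WT), Polk (2.22 against the controls and 1.43 against WT) and Ccng1 (1.36 against the controls and 0.70 against WT). Trp53 itself had 155 CPM at Tc 2D, 293 and 298 CPM in the controls and 283 CPM in WT.

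**Figure D4:**
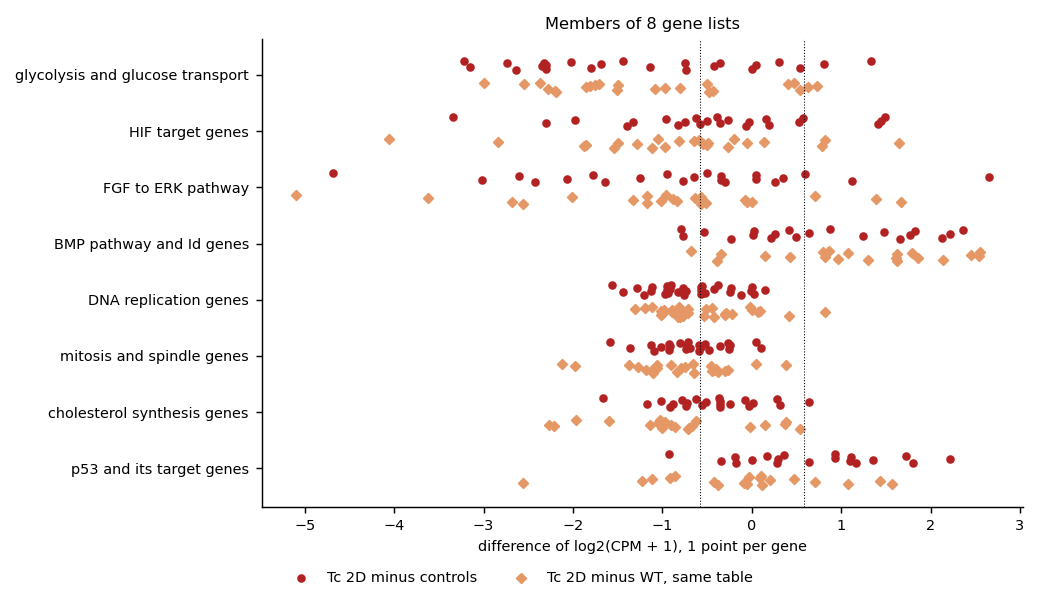
Difference of log2(CPM + 1) (horizontal axis) of each compared member of 8 gene lists (vertical axis), for Tc 2D minus the controls (red circles) and Tc 2D minus WT in the same table (orange diamonds), with dotted lines at the threshold of 0.58. Glycolysis and FGF members spread to the left as far as -3.22 and -4.68 in the red points, most replication and mitosis members lie left of 0, with the highest red points at 0.15 and 0.10, and the p53 members have red points from -0.93 to 2.22 with a median of 0.64 and orange points with a median of -0.028.

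Chromatin and DNA methylation genes included some of the larger falls. Of 15 DNA methylation and demethylation genes, 9 were downregulated and 2 upregulated, with medians of -0.70 and -0.65. Dnmt3l, the cofactor of the de novo methyltransferases, had 30.3 CPM at Tc 2D, 324 and 397 CPM in the controls and 293 CPM in WT. Dnmt3a had 47.7 CPM at Tc 2D, 228 and 249 CPM in the controls and 171 CPM in WT, whereas Dnmt3b was not called, at -0.36. Zfp57, which protects imprints, had 86.5 CPM at Tc 2D, 447 and 439 CPM in the controls and 194 CPM in WT. Among the TET enzymes, which oxidise methylcytosine, Tet2 had 49.1 CPM at Tc 2D, 264 and 286 CPM in the controls and 89.3 CPM in WT, Tet1 297 CPM at Tc 2D, 388 and 581 CPM in the controls and 464 CPM in WT and Tet3 58.5 CPM at Tc 2D, 20 and 21.2 CPM in the controls and 9.47 CPM in WT. Tet1 and Tet2 were thus below the controls and Tet3 above every reference. Of 11 Polycomb repressive complex 2 genes 5 were downregulated and 3 upregulated against the controls, and 7 and 1 against WT, with medians of -0.43 and -0.60. Jarid2 had 209.9 CPM at Tc 2D, 540.1 and 657 CPM in the controls and 537 CPM in WT, and Eed 95.9 CPM at Tc 2D, 225 and 251 CPM in the controls and 176 CPM in WT, while the catalytic subunit Ezh2 and Suz12 were not called, at -0.36 and -0.43. E130012A19Rik had a difference of -1.74. Ezh1 and Phf1 were higher, at 59.9 CPM at Tc 2D against 29.9 and 30.3 CPM in the controls and 14.4 CPM at Tc 2D against 5.44 and 4.39 CPM in the controls, and Ezh1 was not past 0.58 against WT, at 0.27. Phf19, the other upregulated member, was below WT, at 0.82 against the controls and -0.77 against WT.

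Pontin (Ruvbl1), the subject of the wider study, was past the threshold on the lower side, with 96.7 CPM at Tc 2D, 166 and 186 CPM in the controls and 226 CPM in WT, and so was its partner Ruvbl2 (Reptin), with 192 CPM at Tc 2D, 411 and 392 CPM in the controls and 373 CPM in WT. On total reads on genes the difference of Ruvbl1 was -0.40, short of the threshold. Actl6a and Morf4l1, subunits of TIP60 and other complexes, were the remaining downregulated members of 20 compared, at -1.11 and -0.98, and Epc1 was upregulated, at 0.76. The list medians were -0.027 against the controls and -0.27 against WT, and the catalytic subunits Kat5, Ep400, Srcap and Ino80 were not called, at 0.14, -0.02, 0.30 and -0.14. In the MYC network 6 of 17 genes were downregulated and 2 upregulated, with medians of -0.36 and -0.49. Mycn had 68 CPM at Tc 2D, 151 and 163 CPM in the controls and 193 CPM in WT, and Myc was not called, at -0.23. Npm1 and Ncl, abundant nucleolar genes, were far lower than the controls but WT was too, with 1040.0 CPM at Tc 2D, 4194 and 5180.1 CPM in the controls and 1953 CPM in WT for Npm1. Mnt and Mga, partners of MAX that oppose MYC, were upregulated, at 1.12 and 0.63.

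Several lists gave different values with each reference, and the cause was not tested. All 7 of the compared 2-cell-like genes were downregulated against the controls, with a median of -1.71, but against WT 1 was downregulated and the median was 0. That gene, Dppa2, had 30.1 CPM at Tc 2D, 94.9 and 107 CPM in the controls and 75.4 CPM in WT and lay below both references, at -1.71 against the controls and -1.29 against WT. Zscan4c, Zscan4d and Zscan4f, near-identical members of a cluster active in rare 2-cell-like ES cells, had at most 0.0802 CPM at Tc 2D and 0.153 CPM in WT, against 29.6 and 25.8 CPM in the controls for Zscan4d. Germline genes had 7 downregulated and 4 upregulated of 18 against the controls but 3 and 8 against WT, with medians of -0.47 and 0.081. Dazl, an RNA-binding protein of germ cells, had 6.25 CPM at Tc 2D, 48.2 and 37.8 CPM in the controls and 7.28 CPM in WT, Tuba3a 9.7 CPM at Tc 2D, 86.7 and 63.7 CPM in the controls and 13.7 CPM in WT, and Gtsf1 0.521 CPM at Tc 2D, 8.3 and 6.45 CPM in the controls and 0.662 CPM in WT, so WT was as low as Tc 2D. Tdrd1 and Sycp2 were upregulated by both, at 2.15 against the controls and 2.34 against WT and 1.25 against the controls and 2.12 against WT, as was Ddx4, a germ cell helicase, at 1.31 against the controls and 0.85 against WT. Of 16 lysosome and autophagy genes 7 were upregulated and 1 downregulated against the controls, and 2 and 2 against WT, with medians of 0.35 and 0.058, and the largest rise, Hexa, was 0.048 against WT.

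Genes of other cells that the libraries could hold were checked in the same way. Feeder fibroblasts are one such source, since the study kept ES cells with or without them. Of 26 fibroblast markers 19 were compared, 1 upregulated and 10 downregulated, with medians of -0.83 and -0.63. The median was -0.45 against the first control, short of the threshold, and -1.08 against the second. Acta2, Tnc and Col1a2, all called downregulated, differed by 1.76, 1.86 and 0.90 between the controls. The summed level of all 26 markers was 133 CPM at Tc 2D, 334 and 292 CPM in the controls and 158 CPM in WT. Lum, Dcn, Postn, Col3a1 and S100a4 were below 1 CPM in all 4 libraries, Acta2 was at 0 at Tc 2D, and Fstl1, Mmp2 and Thy1 made up much of the control sum, with 40.5 CPM at Tc 2D against 169 and 142 CPM in the controls for Fstl1. Pdgfrb was the upregulated member, with 28.5 CPM at Tc 2D, 11.9 and 9.81 CPM in the controls and 0.814 CPM in WT. The part of feeder fibroblasts in the differences above was not tested. Of 16 actin and tropomyosin genes 6 were downregulated and 2 upregulated, led by Cnn1 at -1.56 and Tpm1 at 1.29, with medians of -0.29 and -0.21. Of 15 genes of the epithelial to mesenchymal transition 4 were upregulated, with Zeb2 at 5.45 CPM at Tc 2D against 1.2 and 1.33 CPM in the controls and Snai1 at 3.97 CPM at Tc 2D against 1.98 and 1.81 CPM in the controls, and 3 downregulated, while Fn1 and Vim were not called, at -0.53 and -0.47. The medians of this list were 0.072 against the controls and -0.093 against WT.

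Interferon response genes were looked at because the controls had been infected. Of 14 compared, 4 were upregulated and 2 downregulated against the controls, and 6 and 2 against WT, with medians of -0.00033 and 0.29, and 8 were too low to compare, Ifit1, Ifit3, Isg15 and Irf7 among them. Tap1, a peptide transporter of antigen presentation, had 45.2 CPM at Tc 2D, 3.69 and 4.21 CPM in the controls and 9.21 CPM in WT, and Oasl2 had 5.05 CPM at Tc 2D, 0.277 and 0.516 CPM in the controls and 1.32 CPM in WT. Ddx58 (RIG-I), a sensor of viral RNA, had 11.5 CPM at Tc 2D, 29.8 and 58.7 CPM in the controls and 49 CPM in WT. Of 13 retinoic acid response genes, 4 were upregulated and 5 downregulated against the controls but 8 and 3 against WT, with medians of 0.10 and 0.86. Nr2f2, a nuclear receptor, had 6.33 CPM at Tc 2D, 0.138 and 0.086 CPM in the controls and 0.102 CPM in WT, Cyp26b1 2.53 CPM at Tc 2D, 0.185 and 0.258 CPM in the controls and 0.254 CPM in WT, and the binding proteins Crabp1 and Crabp2 had differences of -2.89 and -1.46. Cyp26a1 and Hoxb1, direct targets of retinoic acid, were below 0.5 CPM in the 3 ZHBTc4 libraries.

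By size alone, among 3886 called genes of at least 5 CPM on average that passed 0.58 against each control and differed by less between the controls, the 10 largest rises were Igf2, Tinagl1, Alcam, Sez6, Krt7, Wnt7b, Fam13a, Krt18, Zfhx4 and Gab2. Alcam, a cell adhesion molecule, had 38.4 CPM at Tc 2D, 1.11 and 1.25 CPM in the controls and 0.458 CPM in WT. Sez6, a membrane protein best known from neurons, had 31.5 CPM at Tc 2D, 0.969 and 1.25 CPM in the controls and 2.04 CPM in WT. Fam13a had 33.1 CPM at Tc 2D, 2.86 and 2.19 CPM in the controls and 1.37 CPM in WT, Zfhx4, a zinc finger homeobox factor, 14.7 CPM at Tc 2D, 0.461 and 0.817 CPM in the controls and 0.662 CPM in WT, and Gab2, a docking protein of receptor kinases, 21.8 CPM at Tc 2D, 1.61 and 1.25 CPM in the controls and 1.63 CPM in WT. For each of these Tc 2D was above the controls and WT. Of the 10 largest falls, Tdgf1, Trh and Jam2 are described above, and Dusp27, a dual-specificity phosphatase family member, had 0.561 CPM at Tc 2D, 88.4 and 79.2 CPM in the controls and 52.3 CPM in WT. The other 6 were Zfp141, Zfp961, 2610021A01Rik, Zfp229, Zfp936 and 2610001J05Rik, mostly zinc finger genes of large families. Zfp141 had 0 CPM at Tc 2D, 99 and 121 CPM in the controls and 0 CPM in WT, and Zfp961 had 0.0802 CPM at Tc 2D, 116 and 116 CPM in the controls and 0.0509 CPM in WT. All 6 were at or near 0 in WT as well.

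Pontin ChIP-seq of ZHBTc4 cells, which the calls did not use, was read at promoters from 2500 bases upstream to 500 bases downstream of the start site. It comprises 1 Pontin library of 40729076 reads and 1 GFP control library of 17185883 reads, with no replicate. Over 12982 promoters with reads in both, the median log2 ratio of Pontin to GFP per library size was 0.43 for upregulated genes, 0.41 for downregulated genes, 0.46 for genes not called and 0.44 for all. With genes ranked by their CPM in the controls into 4 bins of equal size, the medians from the lowest to the highest bin were 0.34, 0.46, 0.51 and 0.47 for upregulated genes and 0.27, 0.39, 0.39 and 0.49 for downregulated genes. For genes not called they were 0.34, 0.47, 0.47 and 0.53. With 1 library each, these gaps have no replicate error and were not tested.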

How the data were processed

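Poly(A) mRNA of ZHBTc4 ES cells was sequenced at Tc 2D (1 library) and with control shRNA (2 libraries), and 1 WT library served as a second reference. Per the study's methods, the authors trimmed reads at PHRED scores below 20, aligned them to NCBIM37 with TopHat, allowing up to 10 locations, obtained gene counts from HTSeq, normalised these by TMM in edgeR and deposited the CPM in 2 separately normalised tables. Of the values above 0, 100% came out as whole reads with a tolerance of 0.01 read, so counts could be recovered. The reads on genes ranged from 17187595 to 37951742 over the 8 mRNA libraries. The authors deposited the ChIP-seq reads, aligned with Bowtie2, with their mapping quality score. No column of per-sample values was left unmapped (0 columns).

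Tc 2D and WT were put on the scale of the controls by the median ratio. Autosomal genes above 1 CPM in any of the 3 ZHBTc4 libraries were kept, 1 was added, and an absolute log2 difference above 0.58 was a call. Tc 2D against WT used the CPM as deposited. Floors (3 reads) cover counting error only. Gene positions and symbols come from the NCBIM37 annotation (22337 of 22713 IDs matched). Promoters are those of RefSeq, GRCm38.p6. The edgeR quasi-likelihood test (4.0.16) and DESeq2 (1.42.0), with Benjamini-Hochberg adjustment, were alternatives on recovered reads, checked on simulated data. R 4.3.3, Python 3.11.15, numpy 2.4.6, pandas 2.3.3 and matplotlib 3.10.9 were used.

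Genes named are the 4 markers, the 10 largest rises and falls of at least 5 CPM on average that passed 0.58 against each control and differed by less between the controls, up to 4 rises and 4 falls per list, and list members picked for their roles. The members and lists were chosen with earlier results of these data known. The labels do not say whether the controls came from separate cultures. Genes of the X, Y and mitochondrial genomes (960) and lincRNAs were not analysed here.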

Additional observations from a re-analysis of the deposited data

How the results depend on the processing

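The counts of 3208 upregulated and 3115 downregulated genes stayed within 1.5-fold under a pseudocount of 0.5 or 3, either change of the filter, the CPM as deposited, joint TMM, calls required against each control, WT or all 4 shRNA libraries as the control, and both count tests. Exceptions were total reads on genes, with 5724 upregulated and 1776 downregulated, an absolute log2 difference above 1, with 1514 and 1625, and, for downregulated genes, keeping those that differ by 0.58 or less between WT and the controls, with 1897 (2205 upregulated). That last setting, and calls required against WT too (2224 and 2108), were chosen after seeing the data. Without a control replicate the counts ranged from 3191 to 3250 upregulated and from 3078 to 3153 downregulated. With the lone Tc 2D library assumed to vary like the 4 shRNA libraries, edgeR gave 3751 higher and 3703 lower genes an adjusted p below 0.05, which is no replicate check of Tc 2D. No paired analysis was possible because Tc 2D has 1 library and shares fewer than 2 replicate numbers with the controls.

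With WT as the control the p53 median turned to -0.028, and called differences turned sign for Zfp961 (0.035), Zfp42 (0.31), Hnf4a (0.34), Gata4 (-0.12), Rbp4 (0.36), Kdr (0.35), Id1 (1.86), Bhlhe40 (-0.20), Rb1 (-0.081), Phf19 (-0.77), Asz1 (0.098), Arg2 (0.17), Oas1a (0.34), Zscan4d (0.035) and Meis2 (1.25). Without a control replicate, Esrp1 ranged from -1.85 to 0.97. For these the cause was not tested. This check covered 231 genes, namely the markers and the genes ranked by size, over all genes or within a list. Among these 231, no other called difference turned sign under the alternatives run. No other of the 39 list medians that was past 0.58 did so. Members picked only for their roles were not part of this check. Of those, Tcfap2c, Cldn4, Cldn7 and Tjp3, described above, were also above the controls and below WT. The depth limits genes near 0.120 CPM at Tc 2D, the level of 3 reads.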
